A study of Mus musculus with 6 samples.

Results

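The smooth muscle contractile genes were 35 named genes of the contractile apparatus and of smooth muscle differentiation, the compartment in which the transgene of these mice was expressed. Every probe set whose single platform gene symbol was one of the 35 was taken, which gave 71 of the 45037 probe sets on the array. Of these, 61 lay above the filter on dim signal, at least 1 for each of the 35 genes. The 10 that did not were second or later probe sets of Acta2, Myh11, Des, Tpm1, Tpm2, Cald1, Myocd, Ppp1r12b and Tagln2. Whole-lung RNA had been hybridized to 6 arrays, each from a pool of 3 mice, with 1 female and 1 male pool in each of 3 groups. Transgenic mice carried SM22-dnBMPR2, an inducible dominant-negative BMP type 2 receptor (BMPR2) under the smooth muscle promoter SM22, and it had been switched on for 1 week or for 8 weeks. The SM22-rtTA transactivator alone was carried by the controls, per the series description; the female control's own label gave only the strain FVB/N. Ages, strain of the other pools and inducer exposure of the controls are not given in the sources used here, so these cannot be told apart from the transgene. Freezing and kit extraction of the tissue were described for the transgenic pools only. Right ventricular pressure was raised in all transgenic mice, per the series description.

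Smooth muscle cells contract when a calcium-activated kinase, encoded by Mylk, phosphorylates the light chain of smooth muscle myosin, which then pulls on actin filaments anchored at dense bodies and adhesion plaques. A phosphatase built around Ppp1r12a or Ppp1r12b reverses this step. In the lung the contractile genes mark the walls of arteries and veins and the muscle around airways. Many of them are switched on together by the transcription factor Srf and its muscle-specific partner myocardin (Myocd), which act at a short DNA element called the CArG box. SM22, whose promoter drove the transgene, is the product of the member Tagln.

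The promoter windows of the members are shown because many smooth muscle genes are known to be controlled through this element. RefSeq windows (GRCm38.p6) were available for 30 of the 35 genes, and the 250 bases before each start were searched on both strands. The 5 genes without a window were Myh11, Tagln, Nexn, Actg2 and Myocd, so whether they hold a box was not searched. A strict CArG box, with only A or T in its 6 middle bases, lay in the windows of 7 of the 30 members (23.3%) and of 439 of 27025 genes in the table (1.62%). With up to 1 G or C allowed in the middle, it lay in 10 of 30 members (33.3%) and 9.78% of all genes. The boxes are in capitals below, each in a run of 30 bases read 5′ to 3′ on the gene's strand. Srf holds 2 strict boxes and Acta2 holds 2 that each depart by 1 base, while the boxes of Vcl, Cnn2 and Filip1l have the same 10 letters.
Acta2, chr19:34255438-34255467, minus strand, GRCm38.p6: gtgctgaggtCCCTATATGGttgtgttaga
Acta2, chr19:34255388-34255417, minus strand, GRCm38.p6: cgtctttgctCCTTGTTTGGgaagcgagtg
Myl9, chr2:156775293-156775322, plus strand, GRCm38.p6: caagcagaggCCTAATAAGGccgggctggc
Vcl, chr14:20929161-20929190, plus strand, GRCm38.p6: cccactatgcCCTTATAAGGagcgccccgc
Fhl1, chrX:56779571-56779600, plus strand, GRCm38.p6: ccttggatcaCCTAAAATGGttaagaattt
Cnn2, chr10:79988534-79988563, plus strand, GRCm38.p6: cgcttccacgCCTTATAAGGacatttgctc
Srf, chr17:46556215-46556244, minus strand, GRCm38.p6: CCATATAAGGagcggcctcgCCATAAAAGG
The other strict matches were in windows of Myl6 and Filip1l, and Synm, Pdlim3 and a second Myl9 site held a box with 1 base off. At 8 weeks the strict-box genes did not share 1 direction: the log2 change against control was −0.59 for Myl9, −0.37 for Fhl1, −0.29 for Vcl, −0.22 for Myl6, −0.09 for Filip1l, −0.05 for Srf and 0.12 for Cnn2. None of these passed the test described next.

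All values below are log2 intensities after quantile normalization, with a floor at 3.95, and a gene is given at its brightest kept probe set unless another is named. A change is a limma coefficient from 1 fit to the 6 arrays that held terms for group and sex, and it is called only at a Benjamini-Hochberg adjusted p below 0.05 over all 27022 kept probe sets. Median deposited intensity was 61.43 to 63.41 in the control pools, 57.1 to 60.22 at 1 week and 50.49 to 52.92 at 8 weeks. The 7 genes used as smooth muscle markers (Acta2, Tagln, Myh11, Cnn1, Actg2, Lmod1 and Myocd) were above the floor in every pool. Of these, Myocd is also classed below with the members that heart or skeletal muscle expresses strongly. Bmpr2 at its brightest probe set read 11.99 and 12.15 in controls (female first, then male, here and in what follows), 11.85 and 12.14 after 1 week, and 11.79 and 11.84 after 8 weeks. Whether that probe set detects the transgene is not given in the sources used here.

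After 8 weeks of activation most contractile genes stood below control, but no single member passed the test. Both sexes had the lower value at 8 weeks for 24 of 35 members, against 25% of the 13215 genes measured, and both had the higher value for 4, against 42.2%. Both 8 week pools lay below both control pools for 17 members, against 14.1% of genes. The largest differences were those of the smooth muscle myosin heavy chain Myh11 (−1.51), the intermediate filament protein synemin (Synm −1.15), myocardin (Myocd −0.79) and the enteric smooth muscle actin Actg2 (−0.63). The median over the 35 members was −0.22 (−0.29 in females and −0.24 in males), beside 0.08 over all genes. In whole lung, fewer smooth muscle cells and less RNA per cell cannot be told apart.

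By limma, 0 of the 61 kept member probe sets passed at 8 weeks, where 161 of 27022 did (0.596%), and the smallest adjusted p among members was 0.059 (Synm). With unadjusted p below 0.05 there were 17 of the 61 member probe sets, beside 23% of all probe sets. At that threshold 16 of the 61 were lower, beside 11.2% of all probe sets. In the other direction 1 of the 61 was higher, a second probe set of Srf, beside 11.8% of all. The call depended on how the variance was moderated: with the trend and robust setting 11 member probe sets in 9 genes passed, of 1916 in all, while with least squares none did. The direction of small changes depended on the scaling. With arrays centred on their medians, the median of all genes was 0.20, that of the members was −0.05 and 16 members were lower in both sexes, beside 13.7% of genes. As deposited, these were −0.08, −0.32 and 27 members, beside 41.8%. The members' median therefore lay 0.29 below that of all genes in the chosen processing and 0.25 below it at each of the other scalings.

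**Figure D1:**
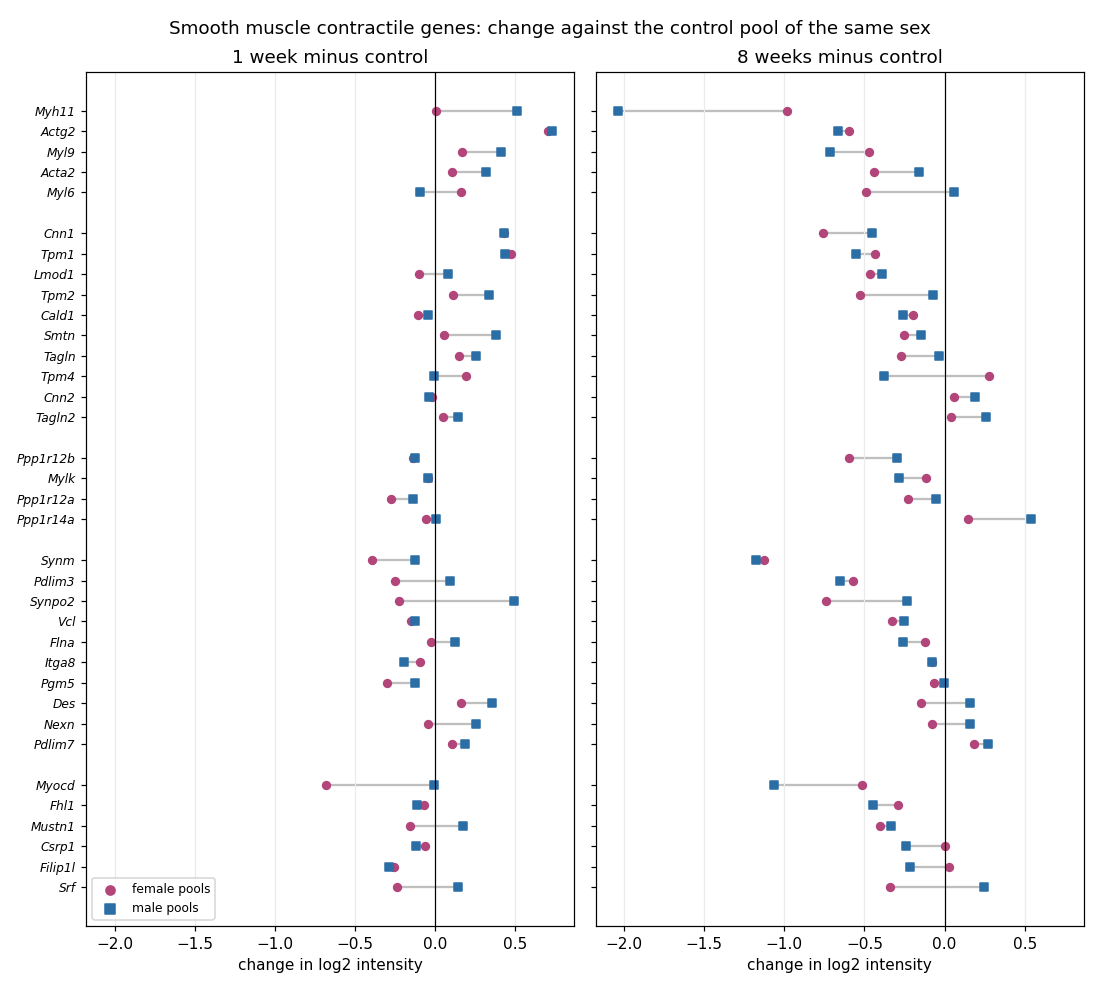
Change in log2 intensity of each of the 35 members against the control pool of the same sex, after 1 week (left) and 8 weeks (right), at the brightest kept probe set. Circles are female pools, squares male pools, and rows are grouped by role. At 8 weeks both points lie left of 0 for 24 members and right of 0 for 4; with arrays centred on their medians, 16 members are lower in both sexes.

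The actin and myosin genes had the lowest median of the role groups at 8 weeks, −0.59 over 5 genes. Of the 5, 4 were lower than control without overlap, beside 14.1% of all genes. Actg2 read 9.20 and 9.24 in controls, 9.90 and 9.97 after 1 week, and 8.60 and 8.58 after 8 weeks. The 3 groups did not overlap, and female and male pools of each group lay close together. Its change was 0.72 ± 0.13 (± standard error) at 1 week, −0.63 ± 0.13 at 8 weeks and −1.35 ± 0.13 between the durations, none of which passed in limma (adjusted p = 0.894, 0.1 and 0.101). The vascular smooth muscle actin Acta2, the most abundant actin of the contractile filament, read 11.99 and 11.79 in controls, 12.10 and 12.11 after 1 week, and 11.55 and 11.63 after 8 weeks. Acta2 thus had its highest values in the 1 week pools and its lowest in the 8 week pools, with a change of −0.30 ± 0.14 at 8 weeks (adjusted p = 0.288 in limma).

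Myh11, the motor of the smooth muscle thick filament, showed the largest difference of any member and the widest gap between sexes. It read 10.18 and 9.84 in controls, 10.19 and 10.35 after 1 week, and 9.20 and 7.80 after 8 weeks. Both 8 week pools lay below the other 4 pools, the male one by much more: −0.98 in females and −2.04 in males against the same-sex control. The fitted change was −1.51 ± 0.39, a 2.85-fold difference that did not pass in limma (adjusted p = 0.127). The regulatory light chain Myl9, the substrate of the kinase, read 11.14 and 10.73 in controls, 11.30 and 11.14 after 1 week, and 10.67 and 10.01 after 8 weeks, a change of −0.59 ± 0.17. As with Myh11, the male 8 week pool was the lowest. The essential light chain Myl6, which non-muscle myosin also uses, overlapped between groups and stood at −0.49 in females and 0.06 in males.

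**Figure D2:**
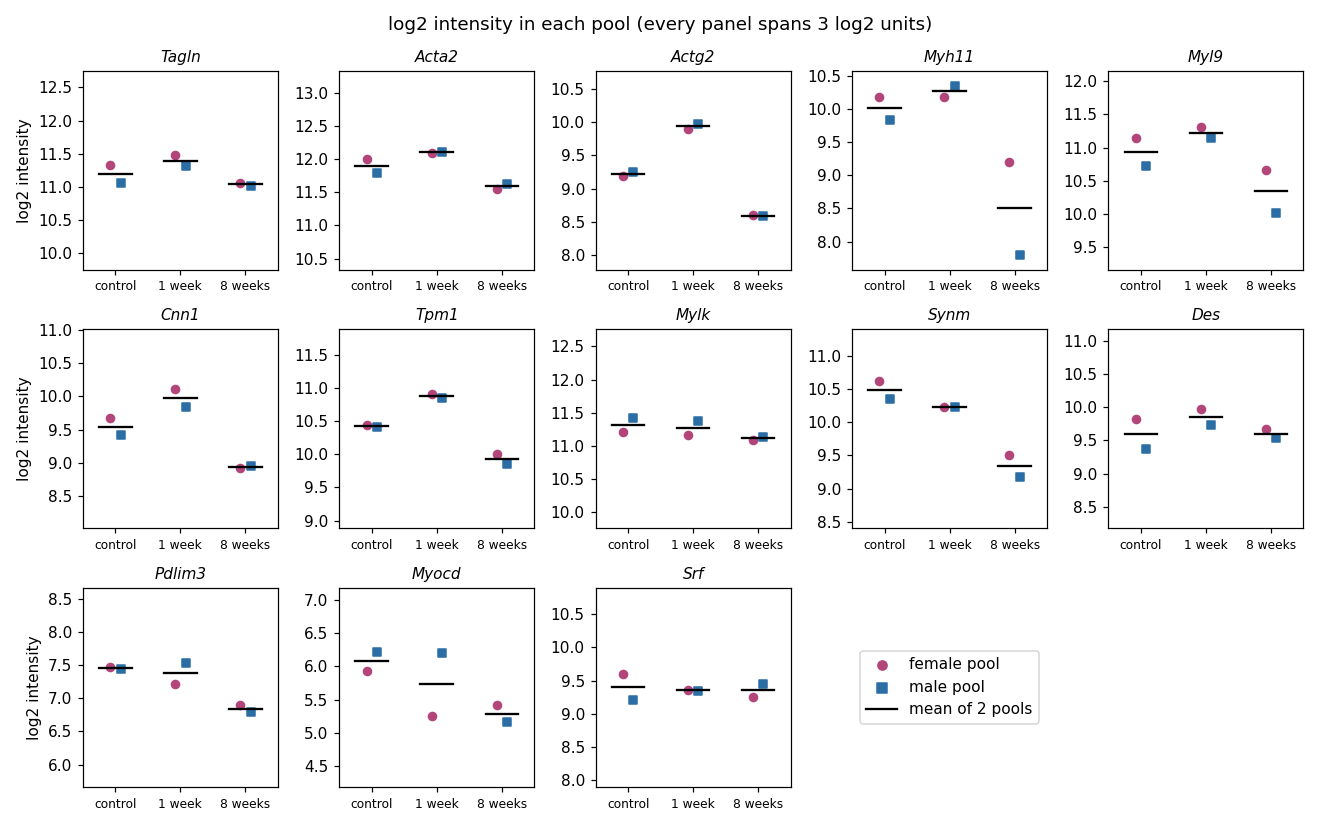
log2 intensity of 13 members in each of the 6 pools (circle female, square male, bar the mean of the 2 pools), on panels that each span 3 log2 units. Actg2, Cnn1 and Tpm1 have their highest values at 1 week and their lowest at 8 weeks, Myh11 and Synm stand lowest at 8 weeks, and the 8 week pools of Des and Srf overlap with control.

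Among the 10 thin filament proteins the median was −0.21 at 8 weeks, with 7 lower in both sexes (25% of all genes) and 2 higher (42.2%). Calponin 1 (Cnn1), which binds actin and restrains myosin, read 9.68 and 9.41 in controls, 10.11 and 9.84 after 1 week, and 8.92 and 8.96 after 8 weeks. Its 8 week pools lay below all the others, with a change of −0.61 ± 0.15 against control and −1.04 ± 0.15 against 1 week, the latter a 2.05-fold difference (adjusted p = 0.124 and 0.106 in limma). Tropomyosin 1 (Tpm1), which lies along the actin groove, read 10.43 and 10.41 in controls, 10.91 and 10.85 after 1 week, and 9.999 and 9.859 after 8 weeks. The groups of Tpm1 did not overlap, and its changes were 0.46 ± 0.13 at 1 week and −0.49 ± 0.13 at 8 weeks. Of its other kept probe sets, one stood at 0.07 at 1 week and 0.00087 at 8 weeks and another at −0.38 and −0.99.

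Tagln itself, the gene whose promoter drove the transgene, differed less. It read 11.34 and 11.05 in controls, 11.48 and 11.31 after 1 week, and 11.06 and 11.02 after 8 weeks. The 8 week pools overlapped with control, and its change of −0.15 ± 0.14 (adjusted p = 0.54 in limma) became 0.03 with arrays centred on their medians. Leiomodin 1 (Lmod1), which nucleates actin filaments in smooth muscle, stood at −0.43 ± 0.13 without overlap. The tropomyosin Tpm2 stood at −0.30 and the actin-binding proteins caldesmon (Cald1) and smoothelin (Smtn) at −0.23 and −0.20. With arrays centred Tpm2 stood at −0.13, Cald1 at −0.05 and Smtn at −0.04. The broadly expressed relatives of these proteins did not share the sign: Cnn2 stood at 0.12 and Tagln2 at 0.15, higher in both sexes, and Tpm4 at 0.28 in females and −0.38 in males.

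The contraction switch showed small differences at its brightest probe sets. Mylk read 11.21 and 11.42 in controls, 11.16 and 11.38 after 1 week, and 11.09 and 11.14 after 8 weeks, a change of −0.20 ± 0.13 with no overlap between 8 weeks and control. With arrays centred on their medians that change was −0.02. The myosin-targeting phosphatase subunits stood at −0.45 ± 0.15 (Ppp1r12b, no overlap) and −0.14 ± 0.13 (Ppp1r12a, overlap, and 0.02 with arrays centred). Ppp1r14a, which encodes the phosphatase inhibitor CPI-17, went the other way. It stood at 0.34 ± 0.16 (0.15 in females and 0.54 in males), and with Cnn2 it was the only member whose 8 week pools both lay above both controls, where 27.2% of all genes did so. None of the 4 genes passed in limma at any probe set, with adjusted p for Ppp1r14a of 0.28.

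Genes of intermediate filaments, dense bodies and adhesion plaques were split. Synm read 10.62 and 10.35 in controls, 10.23 and 10.23 after 1 week, and 9.50 and 9.18 after 8 weeks. Both 8 week pools lay well below the other 4, and the change of −1.15 ± 0.15 was nearly the same in females (−1.13) and males (−1.18). Synm came closest to the threshold in limma (adjusted p = 0.059), and passed in 6 of the 20 settings tried (0.00503 to 0.285). The second Synm probe set stood at 0.20, in the opposite direction. Desmin (Des), the main muscle intermediate filament protein, read 9.81 and 9.38 in controls, 9.97 and 9.73 after 1 week, and 9.67 and 9.53 after 8 weeks. Desmin overlapped between 8 weeks and control, at −0.15 in females and 0.16 in males, and its fitted 0.0050 became −0.11 as deposited.

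The Z-disc and actin-anchoring protein Pdlim3 read 7.47 and 7.44 in controls, 7.22 and 7.54 after 1 week, and 6.89 and 6.79 after 8 weeks. Its 8 week pools were the lowest, with a change of −0.61 ± 0.16 (adjusted p = 0.135 in limma). Synaptopodin 2 (Synpo2), an actin-bundling dense body protein, stood at −0.49, the adhesion plaque protein vinculin (Vcl) at −0.29 and the actin crosslinker filamin A (Flna) at −0.19, each without overlap. With arrays centred on their medians Synpo2 stood at −0.39, Vcl at −0.11 and Flna at −0.01. The integrin Itga8 (−0.08), Pgm5 (−0.04), Nexn (0.04) and Pdlim7 (0.23) overlapped with control. Of these, Itga8 and Pgm5 turned above 0 with arrays centred, and Nexn turned below 0 as deposited.

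The transcriptional regulators differed from each other. Myocd read 5.93 and 6.22 in controls, 5.25 and 6.21 after 1 week, and 5.42 and 5.15 after 8 weeks. The 8 week pools of Myocd lay below both controls, while the female 1 week pool was as low as they were, and the change of −0.79 ± 0.31 did not pass (adjusted p = 0.223 in limma). Srf, its DNA-binding partner, read 9.60 and 9.20 in controls, 9.36 and 9.35 after 1 week, and 9.25 and 9.45 after 8 weeks. The groups of Srf overlapped, at −0.34 in females and 0.25 in males, and its second probe set stood at 0.63 ± 0.22. The LIM protein Fhl1 stood at −0.37 without overlap and Mustn1 at −0.37 with overlap. Csrp1 (−0.12) and Filip1l (−0.09) were both above 0 with arrays centred (0.06 and 0.07).

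After 1 week the members showed no common shift. Their median was 0.0085 beside 0.03 for all genes, with 13 lower in both sexes (21.1% of all genes) and 12 higher (32.6%). Without overlap 5 were lower (7.79%) and 7 higher (15.1%). By limma 0 of 61 passed, as for all probe sets (0%), and 3 had an unadjusted p below 0.05, beside 5.5% of all (2.47% lower and 3.03% higher), each of them higher. The role groups differed in sign: the medians were 0.26 for actin and myosin, where 4 of 5 genes were higher in both sexes without overlap, and 0.15 for thin filament proteins. They were −0.09 for the contraction switch, −0.01 for intermediate filaments and adhesion and −0.09 for the regulators. The highest values were those of Actg2 (0.72), Tpm1 (0.46), Cnn1 (0.43) and Myl9 (0.29), and the lowest those of Myocd (−0.34), Filip1l (−0.27) and Synm (−0.26).

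Set directly against each other, the 8 week pools were lower than the 1 week pools for 22 members in both sexes (29.3% of all genes) and without overlap for 18 (15.7%). They were higher in both sexes for 7 (40.8%) and without overlap for 4 (24.1%). No probe set passed in limma, among members or among all (0%). With an unadjusted p below 0.05 there were 20 member probe sets in this comparison, all lower, beside 18.5% of all probe sets (9.18% lower and 9.32% higher), and the smallest adjusted p was 0.101 (Actg2). The members' median was −0.25 beside 0.04, and the actin and myosin median was −0.88. Myh11 stood at −1.77, Actg2 at −1.35, Cnn1 at −1.04, Tpm1 at −0.95, Synm at −0.89 and Myl9 at −0.88. The comparisons with control share the same 2 control pools, and this one shares the transgenic pools with both.

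Probe sets of 1 gene often gave different sizes. Of the 35 genes, 16 had more than 1 kept probe set, and in 5 of the 16 (Mylk, Tpm1, Synpo2, Synm and Srf) these had both signs at 8 weeks. Synm had the widest range, from −1.15 to 0.20, followed by Mylk, from −0.73 to 0.27, and Tpm1, from −0.99 to 0.00087. In Cald1, Ppp1r12a, Vcl, Itga8 and Csrp1, and also in Acta2, Ppp1r12b and Fhl1, the brightest probe set had the smallest difference from control. Acta2 stood at −0.30 and −0.57 at its kept probe sets, Ppp1r12b at −0.45 and −0.63 and Fhl1 at −0.37 and −0.41. Cald1 ran from −0.23 at its brightest to −1.03 ± 0.16 at its dimmest (adjusted p = 0.0711 in limma), with all 4 kept probe sets below 0. Ppp1r12a ran from −0.14 to −0.95 ± 0.14 (adjusted p = 0.0677 in limma), again with all 4 below 0. Vcl stood at −0.29 and −1.12, Itga8 at −0.08 and −0.75 and Csrp1 at −0.12 and −0.65, at 8 weeks. At these second probe sets the male 8 week pool read 5.16, 7.61 and 9.66, the lowest of the 6 pools in each, and the female one 7.24, 8.74 and 10.55. Probe sequences were not used here, so which transcript part each probe set reads was not determined.

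**Figure D3:**
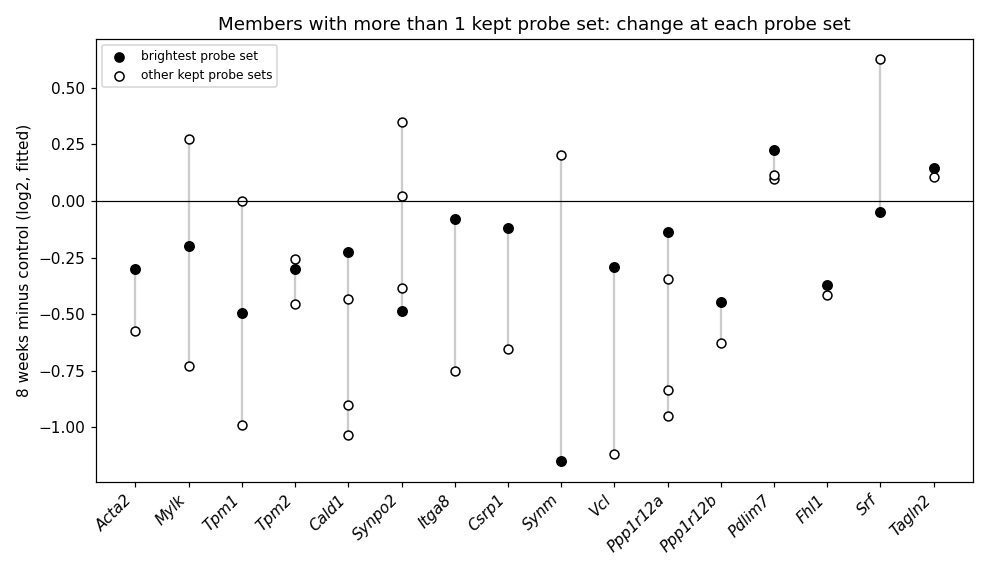
Fitted change in log2 intensity at 8 weeks against control for the 16 members with more than 1 kept probe set, with the brightest filled and the others open. The points of Mylk, Tpm1, Synpo2, Synm and Srf lie on both sides of 0, and those of Cald1 and Ppp1r12a all lie below 0.

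Members were also split by where else they are known to be abundant. The 13 members mostly of smooth muscle had a median of −0.23 at 8 weeks, with 11 lower in both sexes, beside 25% of all genes. For the 13 that heart or skeletal muscle also expresses strongly, such as Des, Synm, Tpm1 and Pdlim3, it was −0.37, again with 11 lower. The 9 broadly expressed members had a median of −0.05, and it turned to 0.10 with arrays centred. Of these 9, 2 were lower in both sexes (25% of all genes) and 3 higher (42.2%). At the 3 scalings the first class lay 0.25 to 0.30 below the median of all genes, the second 0.40 to 0.45 and the third 0.09 to 0.13.

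Most heart muscle markers were also lower at 8 weeks. Their summed intensity over 18 genes was 15821 and 15507 in the female and male controls, 17847 and 22445 after 1 week, and 3291 and 8868 after 8 weeks. At 8 weeks 3 of their 26 kept probe sets passed in limma, all lower, beside 0.596% of all probe sets. Of the 17 heart markers above the filter, 16 were lower in both sexes (25% of all genes) and none was higher (42.2%). The atrial light chain Myl7 read 10.69 and 10.46 in controls and 8.08 and 10.15 at 8 weeks. The ventricular light chain Myl2, below the filter, went the other way, with 4.15 and 3.95 in controls and 5.31 and 6.62 at 8 weeks. No heart marker was at the floor in all 6 pools. Lung holds heart muscle in the sleeves of its veins, and attached atrial tissue would carry the same genes. The 7 smooth muscle markers summed to 9486 and 8097, then 10694 and 10422, then 6786 and 6496. The heart sum was lowest in the female 8 week pool. Of the 17 members lower at 8 weeks without overlap, 7 had the lower 8 week value in the female pool (among them Acta2, Cnn1 and Tpm2) and 10 in the male pool (among them Myh11, Myl9 and Synm). That split is by the 8 week value, not by the change from the same-sex control. Lmod1, with the lower value in the male pool, changed by −0.47 in females and −0.39 in males. Mylk, with the lower value in the female pool, changed by −0.12 in females and −0.28 in males. The part of heart muscle RNA in the values of the members it shares was not tested.

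**Figure D4:**
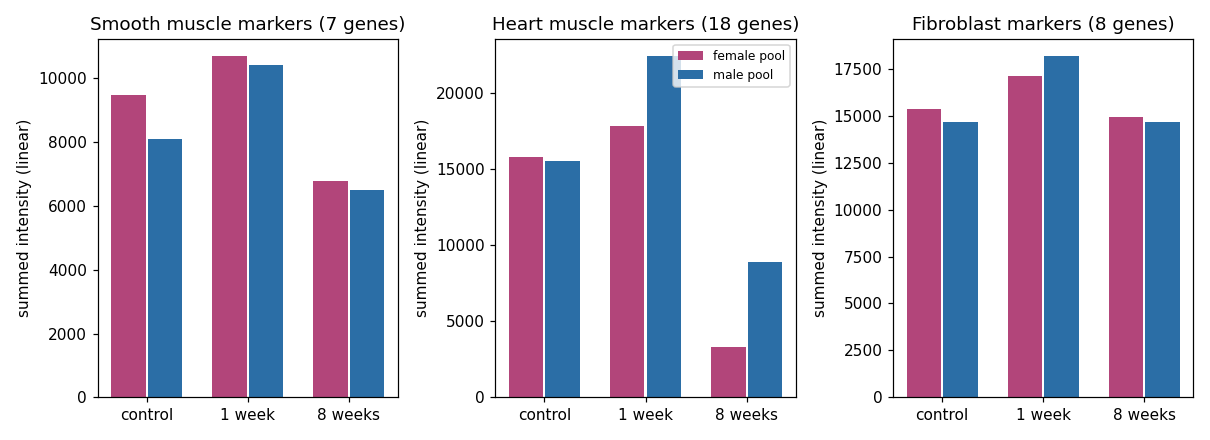
Summed linear intensity of 7 smooth muscle, 18 heart muscle and 8 fibroblast markers in each pool, with bars from 0. Smooth and heart muscle sums are highest in the 1 week pools and lowest in the 8 week pools, the heart sum down to 3291 in the female pool. Fibroblast sums at 8 weeks (14908 and 14661) are close to those of controls (15360 and 14650), but single fibroblast genes went both ways. Of the 7 above the filter, 2 were lower without overlap (14.1% of all genes) and 2 higher (27.2%).

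Other cell types gave a mixed background. Pericyte markers summed to 4834 and 4746 in controls and 4166 and 4385 at 8 weeks. Their changes ran from −0.59 (Notch3) to 0.40 (Cox4i2). Without overlap 3 of the 8 were lower than control (14.1% of all genes) and 2 higher (27.2%). Endothelial markers summed to 17734 and 16227 in controls and 15345 and 13754 at 8 weeks. At 8 weeks 6 of these 8 genes were lower in both sexes (25% of all genes) and 0 higher (42.2%). The median change was −0.19 for endothelial and −0.19 for pericyte markers, near the −0.22 of the members. Skeletal muscle markers, of which 7 of 12 were at the floor in at least 1 pool, summed to 787 and 958 in controls and 490 and 730 at 8 weeks. Macrophage markers were 736 and 1479 in controls and 6496 and 5137 at 8 weeks, for 6 of 8 genes found on the array. What part these cells had in the members' values was not tested.

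Partner genes of contraction and its control that were not members, 79 in all with 60 measured above the filter, were lower in both sexes for 28 (25% of all genes) and higher for 8 (42.2%) at 8 weeks. By limma 0 of their 129 kept probe sets passed, and 25 had an unadjusted p below 0.05, beside 23% of all probe sets. Their median was −0.09, and 0.05 with arrays centred. The largest differences among them were those of alpha-actinin 2 (Actn2 −1.63), a striated muscle Z-disc protein, the small heat shock protein Hspb6 (−1.28), which is abundant in smooth and striated muscle, the laminin receptor subunit Itga7 (1.05) and the smooth muscle potassium channel subunit Kcnmb1 (−0.88). Hspb6 read 8.18 and 7.89 in controls, 8.41 and 8.66 after 1 week, and 7.14 and 6.36 after 8 weeks. Itga7 was higher than control in all 4 transgenic pools, with 7.22 and 7.19 after 1 week and 7.55 and 7.57 after 8 weeks, against 6.80 and 6.22. The BMP target Id1 stood at −0.50 and Id3 at −0.02.

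Whether females and males responded differently was tested with a transgene by sex interaction that took both durations together. By limma 0 of 61 member probe sets passed (0% of all), and the smallest adjusted p was 1. The largest differences between male and female changes among the 35 genes were those of Synpo2 (0.61 ± 0.58), Srf (0.48 ± 0.29) and Tpm4 (−0.42 ± 0.35). Because the 2 durations were pooled, their own difference entered this error, and the gap between the sexes in Myh11 at 8 weeks alone could not be tested with 1 pool of each sex.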

How the data were processed

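Whole-lung RNA from 6 pools of 3 mice was measured on 1 Affymetrix array each, after cDNA synthesis and biotin labelling, per the labels' protocols. The deposited values were linear probe set intensity values, none below 10; the authors' summary and scaling method is not given in the sources used here. They were quantile normalized, raised to the 20th percentile of all values (15.5), and log2 was taken. Probe sets with a mean above the 40th percentile were kept (27022 of 45037); 34945 probe sets carried 1 gene symbol, 932 several and 9160 none. limma 3.58.1 (R 4.3.3) fitted group and sex, with residual df 2 and prior df 2.77. The residual mixes the spread between pools with any sex difference in response, and each pool held different mice. The fit was also run on simulated arrays with independent noise, no sex effect and no shift shared by a pool. That run therefore does not cover such differences between the real pools. Every member was described at its brightest kept probe set, and values in every pool were given for Tagln, Acta2, Myh11, Cnn1, Actg2, Des, Myocd, Srf, Mylk, for members that passed and for the 8 with the largest change common to both sexes at 8 weeks; of the partner genes, those that passed and the 4 largest. Members, lists and rules were chosen with earlier results of these data known, and the CArG box with 1 base off, with the counts by direction under other settings, was added after seeing the data. Promoter sequences are RefSeq's (GRCm38.p6). Plots used matplotlib 3.10.9 in Python 3.11.15.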

Additional observations from a re-analysis of the deposited data

How the results depend on the processing

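The 6 arrays limit what could be called, and signal near the floor is an upper limit. At 8 weeks against control the count of member probe sets that passed was 3 as deposited (Cald1, Ppp1r12a and Synm), 1 with arrays centred on their medians (Cald1), 1 with the floor at the 40th percentile and 1 with only 1-symbol probe sets (Synm each), 2 each with log2(value + 16) and a 60th percentile filter (Ppp1r12a and Synm each) and 11 with trend and robust moderation, against 0 in the chosen processing. Leaving out each array in turn gave 0 to 1, the 1 being Tpm1 without the male 8 week pool. At 8 weeks against 1 week it was 1 with a 60th percentile filter (Actg2), 2 with 1 value per gene (Actg2 and Cnn1) and 9 with trend and robust moderation, and 0 without each array in turn. No count moved from 0 at 1 week, for the interaction, or with no filter, no sex term, only the arrays compared, least squares or without suffixed probe sets. At 8 weeks against control the count over all probe sets, 161 of 27022 in the chosen processing, also differed between settings. The total with trend and robust moderation in that comparison is given above, and the totals at the other settings are not given here. Without them the member counts at those settings cannot be read against the share over all probe sets. The members' median at 8 weeks was −0.32 as deposited, −0.050 with arrays centred and −0.27 with 1 value per gene, and −0.29 to −0.19 without each array. Between the durations these were −0.32, −0.14, −0.31 and −0.27 to −0.21. At 1 week it ran from −0.061 to 0.11 without each array, the latter without the female 1 week pool. The other medians moved by less than the spread between the sexes. Single genes near 0 changed sign: Tagln 0.030 and Srf 0.10 with arrays centred, Des −0.11 as deposited, Tpm1 0.00087 and Srf 0.63 without suffixed probe sets and Srf 0.29 with 1 value per gene. Srf also stood at 0.19 without the female control and 0.15 without the female 8 week pool, and Des ran from −0.12 (without the male control) to 0.13, with −0.099 without the male 8 week pool. The causes were not tested. The interaction could not be fitted without either control pool.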
